A study of Homo sapiens with 8 samples.

Results

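RNA polymerase I (Pol I) machinery was described here through 10 genes, chosen by name, with earlier results of these data known. They were the 6 subunits that only Pol I contains (POLR1A, POLR1B, POLR1E, POLR1F, POLR1G and POLR1H). Also included were the subunits POLR1C and POLR1D, which Pol I shares with Pol III, and the initiation factors RRN3 and UBTF. All 10 were among the 58219 genes listed in the deposited files, and all 10 passed the filter on low counts that left 13129 protein-coding genes to test. The measurement was RNA-seq of total RNA depleted of ribosomal RNA from H929 and KMS11, 2 established multiple myeloma (MM) cell lines that carry the t(4;14) translocation. Each line was cultured for 24 h with 2 µM fluvastatin, an inhibitor of HMG-CoA reductase in the mevalonate pathway, or with ethanol, its solvent, and each of the 4 groups held 2 libraries. Each line derives from a single tumour, and the responses of 2 such lines cannot be extended to other t(4;14) cells from these data.

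Pol I transcribes the repeated ribosomal DNA (rDNA) in the nucleolus into the precursor of the large ribosomal RNAs, and with it sets much of the capacity of a cell to build ribosomes. UBTF binds across the rDNA repeat and keeps it open, the SL1 complex (TBP with its TAF1 partners) marks the promoter, and RRN3 bridges SL1 to Pol I that is ready to initiate. Myeloma cells are malignant plasma cells, which secrete large amounts of immunoglobulin and depend on a high ribosome output.

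Total estimated counts ran from 26702515 to 41910446 per library, and 85.2% to 91.4% of them fell on protein-coding genes. Of 10 markers of plasma cells and of the t(4;14) translocation, 9 were at 5.33 TPM (transcript counts scaled by length and by library) or more in every library, while CD38 was at 21.2 to 26.9 TPM in H929 and at 0.01 to 0.04 TPM in KMS11. Of 8 markers of other cell types, CD3D, CD14, LYZ, HBB and COL1A1 stayed under 1 TPM in all libraries. CD3E was at 1.49 to 3.54 TPM in H929, where it rose with fluvastatin (log2 fold change 1.13, adjusted p = 0.00309), and PECAM1 was at 5.87 to 7.98 TPM there. EPCAM stood at 30.2 to 35.9 TPM in KMS11, which set the summed level of the 8 markers at 32.6 to 38.1 TPM there, against 8.26 to 12.1 TPM in H929. Of the 10 plasma cell and t(4;14) markers 3 fell with fluvastatin in H929 and 3 rose, beside 19.3% and 22.7% of all tested genes. SDC1 (-1.08, edgeR adjusted p = 0.000862), MZB1 (-1.02, adjusted p = 0.00864) and XBP1 (-0.34, adjusted p = 0.00834) fell there. NSD2 (0.42, adjusted p = 0.00678) rose the most of the 10. In KMS11 only XBP1 of the 10 was called, lower (-0.40, adjusted p = 0.0349). The part of these shifts in the results for Pol I genes was not tested. The KMS11 fluvastatin pair differed most among replicates, with a chi-square of 37.8 per degree of freedom over genes against 9.97 to 18.1 in the other 3 pairs, and calls within KMS11 are therefore given with and without either library of that pair. The XBP1 call was lost without fluvastatin replicate 1 (-0.37) or without either ethanol library (-0.47 without ethanol replicate 1). It was kept without fluvastatin replicate 2 (-0.49).

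The promoters of POLR1G, which had the largest fold change of the 10 genes, and of POLR1F, the subunit of lowest GC content, are shown because their 250 bases before the RefSeq start site overlap no annotated exon. In capitals is CACGTG, the E-box that MYC and related factors can bind, which began 12 bases before the start of POLR1G. Both are written 5′ to 3′ on the strand of the gene, from RefSeq on GRCh38.p14, at chr19:45406394-45406643 (plus strand) and chr7:19709038-19709287 (minus strand).

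POLR1G: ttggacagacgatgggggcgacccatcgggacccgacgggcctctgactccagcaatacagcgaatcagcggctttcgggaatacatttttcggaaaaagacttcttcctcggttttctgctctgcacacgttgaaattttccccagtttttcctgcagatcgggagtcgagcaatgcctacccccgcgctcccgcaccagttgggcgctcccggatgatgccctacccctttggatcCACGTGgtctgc

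POLR1F: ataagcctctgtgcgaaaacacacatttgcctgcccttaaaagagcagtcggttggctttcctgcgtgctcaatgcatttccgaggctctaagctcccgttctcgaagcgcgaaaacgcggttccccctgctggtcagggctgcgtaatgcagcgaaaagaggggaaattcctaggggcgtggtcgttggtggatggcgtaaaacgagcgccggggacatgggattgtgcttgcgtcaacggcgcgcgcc

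RefSeq promoter entries were found for 9 of the 10 genes, with 13 start sites, and not for POLR1E. CACGTG occurred in 1 of the 13 promoters and in 6.34% of all 35116 RefSeq promoters of the same length. CCGGAAG, an ETS-type motif, occurred in 4 of the 13, of POLR1B, POLR1C and RRN3, and in 8.52% of all promoters. GGGCGG, the core of an Sp1 site, occurred in 7 of the 13, of POLR1B, POLR1C, POLR1D and UBTF, and in 42.6% of all, and CCAAT in 3, of POLR1D, POLR1H and RRN3, and in 32.0% of all. The NRF1 motif (1.03% of all promoters), TATAAA (10.7%) and the ZBTB33 motif (0.373%) occurred in none of the 13. Both strands were searched, and adjacent matches were allowed to overlap. These are matches of letters in a window and not mapped binding sites.

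The first question was whether the Pol I genes responded to fluvastatin in each line. In H929, 7 of the 10 genes fell after fluvastatin and none rose, with POLR1G, POLR1E and UBTF losing the most. Over all tested genes, 19.3% fell and 22.7% rose in H929. The median log2 fold change of the 10 genes was -0.49, beside 0.02 over all tested genes. In KMS11 all 10 fold changes were below 0, from -0.41 to -0.00 with a median of -0.23 beside 0.00 over all tested genes, and no gene passed the test. Levels here are relative to the counts of all tested protein-coding genes in a library, so a change in total RNA per cell would not be seen. Each library pools the RNA of many cells, so fewer cells expressing a gene and less of its RNA per cell cannot be told apart.

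**Figure D1:**
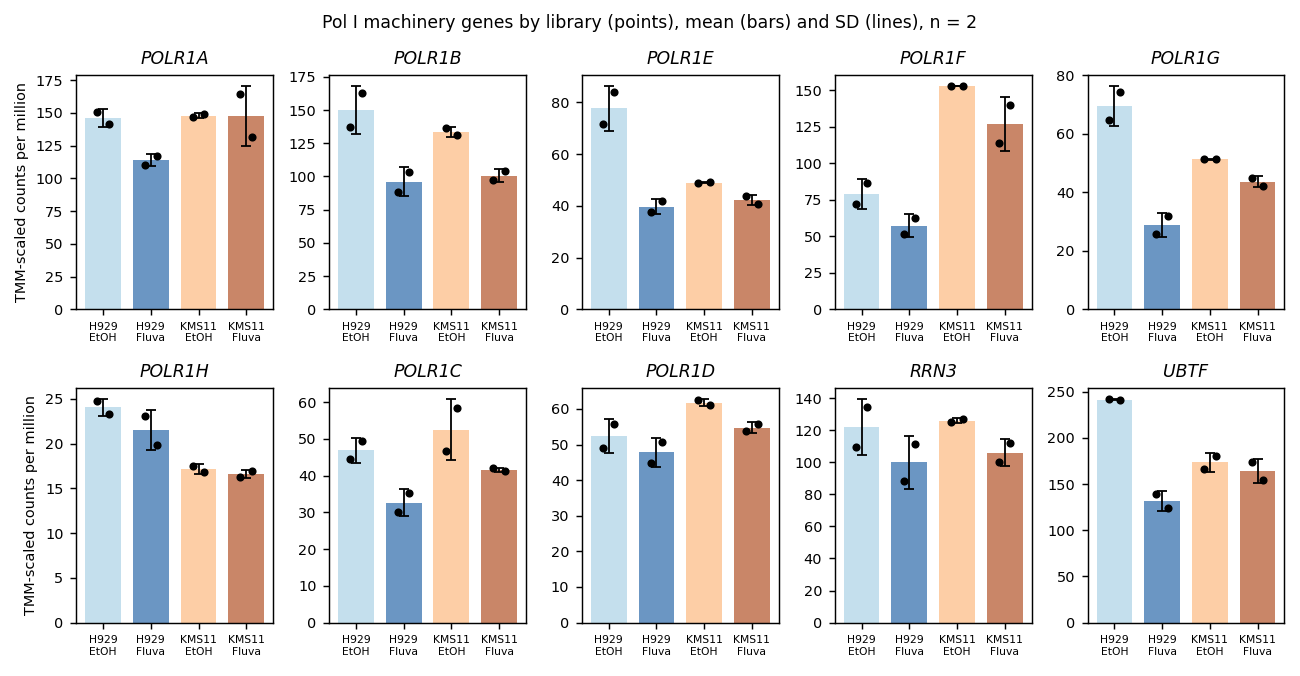
Level of each of the 10 Pol I genes in TMM-scaled CPM (vertical axis, linear from 0) in H929 and KMS11 treated with ethanol (EtOH) or fluvastatin (Fluva). Points are libraries, bars are means and lines are SD (n = 2). Both fluvastatin libraries of H929 lie below both ethanol libraries for all genes but POLR1D and RRN3.

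The catalytic core of Pol I is built by POLR1A, the largest subunit, and POLR1B, the second largest, which together form the active site. POLR1A (ENSG00000068654.15, GRCh38 chr2:86020216-86106155) was measured at 151 and 141 CPM (counts scaled to a common library size by TMM) in the ethanol libraries of H929 and at 111 and 117 CPM in the fluvastatin libraries. The groups did not overlap, and the log2 fold change was -0.36 ± 0.11 (SE; edgeR adjusted p = 0.0267). This call rested on all 4 H929 libraries, since the adjusted p ranged from 0.0573 to 0.125 when any of them was left out, and it was 0.0991 on log2(TPM + 1). In KMS11 POLR1A was at 147 and 149 CPM with ethanol and at 164 and 132 CPM with fluvastatin, so that the treated libraries lay on either side of the controls. The log2 fold change there was -0.00 ± 0.11.

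POLR1B (ENSG00000125630.15, chr2:112541915-112579818) was at 137 and 163 CPM with ethanol and at 88.3 and 104 CPM with fluvastatin in H929, a log2 fold change of -0.64 ± 0.11 (adjusted p = 0.00156). In KMS11 it was at 136 and 131 CPM with ethanol and at 97.3 and 104 CPM with fluvastatin. Groups were apart in both lines. POLR1B had the most negative fold change of the 10 genes in KMS11, -0.41 ± 0.11, with an adjusted p of 0.0881 from edgeR over all tested genes.

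POLR1E and POLR1G form a heterodimer on the flank of Pol I that acts in initiation and elongation. POLR1G (ENSG00000117877.10, chr19:45406644-45410737) was at 64.8 and 74.4 CPM in the ethanol libraries of H929 and at 25.8 and 31.8 CPM in the fluvastatin libraries. Its treated level was 0.414 of the control level, a log2 fold change of -1.27 ± 0.12 (adjusted p = 5.19e-05), and 2.99% of tested genes had a more negative value. In KMS11 it was at 51.2 and 51.3 CPM with ethanol and at 44.8 and 42.2 CPM with fluvastatin, a log2 fold change of -0.24 ± 0.12 (adjusted p = 0.281). Exons of POLR1G overlap those of ERCC1 on the opposite strand over 1593 bases, 49.8% of the exonic bases of POLR1G. ERCC1, a DNA repair nuclease gene, had log2 fold changes of -0.17 (adjusted p = 0.394) in H929 and 0.23 (adjusted p = 0.39) in KMS11. The library kit keeps strand, but the strand setting of the counting is not given in the sources used here.

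POLR1E (ENSG00000137054.15, chr9:37485948-37503697) was at 71.5 and 83.9 CPM with ethanol and at 37.6 and 41.7 CPM with fluvastatin in H929. The treated level was 0.511 of the control level, a log2 fold change of -0.97 ± 0.11 (adjusted p = 0.000126). In KMS11 the ethanol libraries were at 48.8 and 49.2 CPM and the fluvastatin libraries at 43.7 and 40.8 CPM. The groups did not overlap in either line, and the log2 fold change in KMS11 was -0.21 ± 0.11 (adjusted p = 0.28).

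POLR1F forms part of the stalk of the enzyme, the contact site for RRN3, and POLR1H carries the zinc ribbon that helps Pol I cleave its transcript. POLR1F (ENSG00000105849.5, chr7:19695461-19709037) was at 72.0 and 86.3 CPM with ethanol and at 51.6 and 62.9 CPM with fluvastatin in H929, and it fell by 0.47 ± 0.14 on the log2 scale (adjusted p = 0.0215). The call was lost without fluvastatin replicate 1 (adjusted p = 0.142) or ethanol replicate 2 (adjusted p = 0.151) and on log2(TPM + 1) (adjusted p = 0.0722). In KMS11 it was at 153 CPM in both ethanol libraries and at 114 and 140 CPM in the fluvastatin libraries, with a log2 fold change of -0.27 ± 0.14. POLR1H (ENSG00000066379.14, chr6:30058899-30064909) had the lowest CPM of the 10 genes and moved little. It was at 24.7 and 23.4 CPM with ethanol and at 23.1 and 19.9 CPM with fluvastatin in H929 (log2 fold change -0.16 ± 0.13, adjusted p = 0.335). In KMS11 it was between 16.2 and 17.5 CPM in all 4 libraries, and the groups overlapped. Exons of POLR1H overlap those of its antisense partner POLR1HASP over 900 bases, 24.5% of its exonic bases, and up to 227 counts per library were assigned to POLR1HASP.

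POLR1C and POLR1D assemble early and anchor the rest of the enzyme in both Pol I and Pol III. POLR1C (ENSG00000171453.17, chr6:43509702-43562419) was at 44.5 and 49.3 CPM with ethanol and at 30.04 and 35.3 CPM with fluvastatin in H929, and it fell by 0.52 ± 0.14 on the log2 scale (adjusted p = 0.0117). This call too was lost without fluvastatin replicate 1 (adjusted p = 0.083) or ethanol replicate 2 (adjusted p = 0.0742). In KMS11 it was at 46.6 and 58.4 CPM with ethanol and at 42.0 and 41.3 CPM with fluvastatin (log2 fold change -0.34 ± 0.13, adjusted p = 0.182). On the opposite strand its exons meet those of XPO5 over 348 bases, of YIPF3 over 129 bases, of LRRC73 over 140 bases and of the lncRNA gene ENSG00000271754 over 392 bases. XPO5, the exporter of microRNA precursors, fell in H929 (-0.71, adjusted p = 0.000249), YIPF3, a Golgi membrane protein gene, rose (0.48, adjusted p = 0.0287), and LRRC73 and ENSG00000271754 had at most 2 and 33 counts in a library. The remaining overlaps were with noncoding genes of at most 11 counts in a library: a Y_RNA copy (POLR1B), ENSG00000273552 (POLR1D), ENSG00000278773 (POLR1H), and ATXN7L3-AS1 and ENSG00000260793 (UBTF).

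POLR1D (ENSG00000186184.16, chr13:27620742-27744237) did not follow POLR1C past the threshold. It was at 49.0 and 55.7 CPM with ethanol and at 44.9 and 50.7 CPM with fluvastatin in H929, and the groups overlapped (log2 fold change -0.13 ± 0.11, adjusted p = 0.349). In KMS11 the ethanol libraries were at 62.5 and 61.0 CPM and the fluvastatin libraries at 53.8 and 55.8 CPM, with a log2 fold change of -0.17 ± 0.10. The 95% interval in H929, -0.37 to 0.10, leaves room for a decrease of the size seen for POLR1A.

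UBTF (ENSG00000108312.14, chr17:44205033-44221626) was at 242 and 241 CPM in the ethanol libraries of H929 and at 139 and 124 CPM in the fluvastatin libraries. The treated level was 0.544 of the control level, and the log2 fold change was -0.88 ± 0.10 (adjusted p = 0.000121). In KMS11 UBTF was at 166 and 180 CPM with ethanol and at 174 and 155 CPM with fluvastatin. These groups overlapped, with a log2 fold change of -0.08 ± 0.10 (adjusted p = 0.663).

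RRN3 (ENSG00000085721.12, chr16:15060033-15094311) was at 110 and 134 CPM with ethanol and at 88.3 and 112 CPM with fluvastatin in H929. The groups overlapped, and the log2 fold change of -0.29 ± 0.13 did not pass the test (adjusted p = 0.112). In KMS11 RRN3 was at 125 and 127 CPM with ethanol and at 100.3 and 112 CPM with fluvastatin, with a log2 fold change of -0.25 ± 0.13 (adjusted p = 0.301). RRN3 has pseudogene copies that can share its reads. RRN3P1, RRN3P2 and RRN3P3 were given at most 221, 35 and 109 estimated counts in a library, against 2011 to 4794 for RRN3. How many reads these genes share was not measured, so the uncertainty this adds to RRN3 values is not known.

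**Figure D2:**
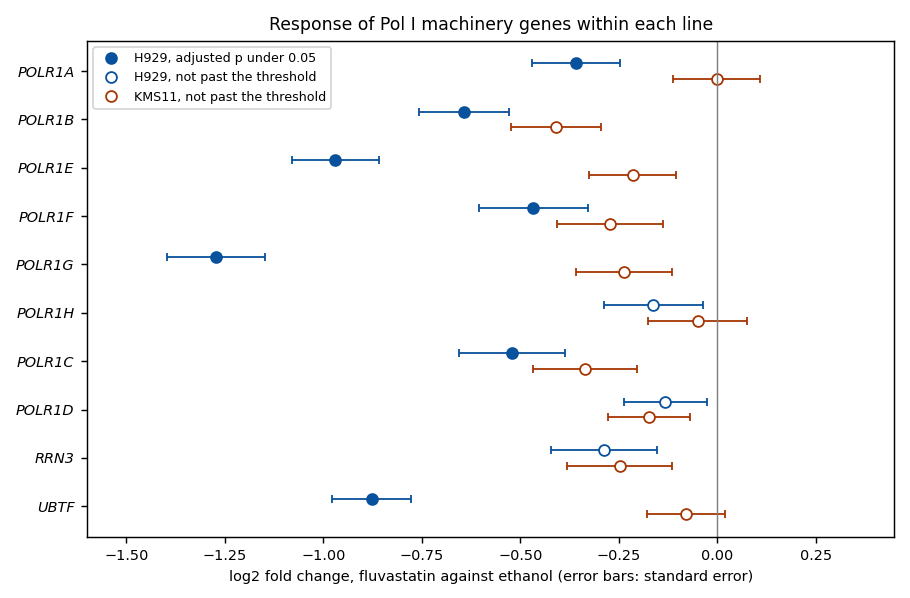
Log2 fold change of fluvastatin against ethanol (horizontal axis) for each Pol I gene in H929 and KMS11, with standard errors from the edgeR fit of all 8 libraries. Filled points passed an adjusted p of 0.05. The 7 filled points are all in H929, from -0.36 for POLR1A to -1.27 for POLR1G, and every KMS11 point is open and lies at or below 0.

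Counted by library, both fluvastatin libraries were below both ethanol libraries for 8 of the 10 genes in H929 and for 7 of 10 in KMS11. Over all tested genes this held for 33.5% in H929 and 26.5% in KMS11. In the opposite direction 0 of the 10 genes were fully separated in either line, against 37.5% and 26.9% of tested genes. In KMS11 edgeR called 0 of the 10 genes, while 0.533% of tested genes fell and 2.58% rose. Of the 10, 2 genes (POLR1B and POLR1C) were lower at an unadjusted p under 0.05, as were 8.23% of tested genes, while 13.7% of tested genes were higher. DESeq2 called 1 of the 10 (POLR1B), and over all tested genes 269 lower and 657 higher. Without KMS11 fluvastatin replicate 1 no gene was called in that line, and without KMS11 fluvastatin replicate 2 the genes POLR1B (-0.50, adjusted p = 0.0348) and POLR1F (-0.48, adjusted p = 0.0468) were called lower. Without that library 648 of 13402 tested genes were lower in KMS11 and 1500 were higher, against 70 and 339 of 13129 with it.

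The second question was whether the lines differed in their response. The difference between the log2 fold changes, KMS11 minus H929, passed the test for POLR1G (1.04 ± 0.17, adjusted p = 0.00323), UBTF (0.80 ± 0.14, adjusted p = 0.00408) and POLR1E (0.75 ± 0.16, adjusted p = 0.00841). All 3 fell in H929, and none of them passed the test in KMS11. Over all tested genes the difference was positive and called for 11.7% and negative and called for 11.5%. For POLR1B the difference was 0.23 with a 95% interval of -0.13 to 0.59, for POLR1C it was 0.19 (-0.24 to 0.61), for POLR1F 0.19 (-0.24 to 0.63) and for RRN3 0.04 (-0.38 to 0.46). These intervals hold both 0 and differences of more than 0.4 (log2). POLR1A (0.36, adjusted p = 0.127; 0.50, adjusted p = 0.0202, without KMS11 fluvastatin replicate 2), POLR1H (0.11) and POLR1D (-0.04) did not pass either. The differences of POLR1G and UBTF passed the test with any single library left out, whereas that of POLR1E was at an adjusted p of 0.0511 without KMS11 ethanol replicate 1.

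Across both lines together, in a fit with a term for the line, 4 of the 10 genes fell and none rose, while 3.93% of all tested genes fell and 6.5% rose. These were POLR1G (-0.75 ± 0.20, adjusted p = 0.0493), POLR1E (-0.59 ± 0.16, adjusted p = 0.0464), POLR1B (-0.53 ± 0.10, adjusted p = 0.019) and POLR1C (-0.43 ± 0.11, adjusted p = 0.0426). UBTF, at -0.48 ± 0.16, did not pass (adjusted p = 0.0811). Of these, POLR1G and POLR1E differed between the lines as given above. This count was not stable. It was 0 with the replicate number as a block and 0 without the line term. With single libraries left out it was 0 without H929 fluvastatin replicate 1 or without H929 ethanol replicate 2, and 1 when KMS11 ethanol replicate 2, H929 ethanol replicate 1 or H929 fluvastatin replicate 2 was left out.

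The lines also differed before treatment. In ethanol, POLR1F was higher in KMS11 than in H929, by 0.95 ± 0.14 on the log2 scale (edgeR adjusted p = 0.000139). Lower in KMS11 were POLR1E (-0.67 ± 0.11, adjusted p = 0.000343), POLR1H (-0.49 ± 0.13, adjusted p = 0.00572), UBTF (-0.48 ± 0.10, adjusted p = 0.00153) and POLR1G (-0.44 ± 0.12, adjusted p = 0.00789). Calls of a difference between the untreated lines were common, with 36.4% of tested genes lower and 35.6% higher in KMS11, so that 4 lower and 1 higher of 10 is near that background. POLR1G, UBTF and POLR1E, whose responses differed between the lines, were thus also higher in H929 before treatment. After fluvastatin POLR1E was at 37.6 to 43.7 CPM in the 4 libraries of both lines. POLR1G and UBTF ended lower in H929 than in KMS11 in every library. These calls depended on the scale and on single libraries. On log2(TPM + 1), where the median of all tested genes lay 0.31 higher in KMS11, 6 of the 10 genes were called higher and 0 lower, beside 6644 and 2477 of the tested genes. POLR1E (-0.13) and UBTF (-0.13) then missed the threshold, POLR1G (0.03) and POLR1H (0.10) changed sign, and RRN3 was called higher (0.52, adjusted p = 0.0114), while with GC trends removed RRN3 was called lower (-0.30, adjusted p = 0.00833). The POLR1G call was lost without KMS11 ethanol replicate 1, KMS11 ethanol replicate 2 or H929 ethanol replicate 2 (adjusted p of 0.0593, 0.0579 and 0.0745) and with GC trends removed (-0.09), which also took the call from UBTF (-0.12). The POLR1H call was lost without KMS11 ethanol replicate 2 (adjusted p = 0.0516).

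Levels of different genes can be set side by side only per length, as TPM. In H929 with ethanol UBTF was highest at 44.2 and 40.7 TPM, above POLR1D at 26.2 and 32.2 TPM, and POLR1A was lowest with 9.03 and 8.80 TPM. The ranges of neighbours from POLR1D down to POLR1H overlapped, as did those of POLR1F and POLR1A. In KMS11 with ethanol POLR1D was highest at 55.9 and 51.0 TPM, followed without overlap by UBTF at 38.6 and 38.9 TPM, while POLR1G at 16.6 and 14.7 TPM and POLR1A at 16.6 and 14.1 TPM were lowest and overlapped. After fluvastatin in H929 POLR1D (22.3 and 26.1 TPM) and UBTF (23.9 and 21.3 TPM) overlapped at the top, and POLR1G became the lowest of the 10 at 5.34 and 6.66 TPM. In KMS11 after fluvastatin POLR1D stayed above UBTF, and POLR1G and POLR1A overlapped at the bottom.

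The effective length that RSEM estimates for a gene weights its isoforms by their use and was not part of the choice of genes. For POLR1D the mean over fluvastatin libraries was 1.10 times that over ethanol libraries in H929 and 1.07 times in KMS11, with both treated libraries above both controls in each line. The median ratio over all tested genes was 0.999 in H929 and 1.001 in KMS11. For POLR1A the ratio was 1.12 in KMS11, but the 4 libraries overlapped (6166 and 6843 bases with ethanol, 8102 and 6492 bases with fluvastatin). The other 8 genes had ratios from 0.959 to 1.06 in either line. Separated libraries were not particular to POLR1D. For POLR1F both treated libraries lay below both controls in each line. In H929 the same held for POLR1E and POLR1H, and POLR1G was separated upward. In KMS11 POLR1B, RRN3 and UBTF were separated upward. The fragment length of a library also moves this value. The share of all tested genes separated in this way was not counted, and no test was run on these lengths.

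Fold changes of the 10 genes also moved when trends of the counts with GC content were removed from each library. GC content of the longest transcript ran from 37.0% for POLR1F to 55.0% for UBTF, beside a median of 47.5% and quartiles of 41.4% and 55.6% over tested genes. POLR1F and RRN3 (41.2%) lay below the lower quartile. With the trend removed all 10 genes were lower in H929, POLR1D (-0.25, adjusted p = 0.0278), POLR1H (-0.32, adjusted p = 0.0254) and RRN3 (-0.48, adjusted p = 0.000696) now included. The background moved as well: 33.4% of tested genes were then called lower in H929 and 22.8% higher. In KMS11 POLR1B passed (-0.36, adjusted p = 0.0136) where 4.86% of tested genes were lower and 6.57% higher, and 7 genes passed across both lines, where 13.3% were lower and 10% higher. Differences of response were called for 6 of the 10 genes, with 22.8% of tested genes called in that direction and 12.6% in the other. All fold changes within H929 and across both lines were negative under either treatment of GC content. With length trends also removed, POLR1D (-0.18, edgeR adjusted p = 0.0817) and POLR1H (-0.20, edgeR adjusted p = 0.142) were not called in H929.

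**Figure D3:**
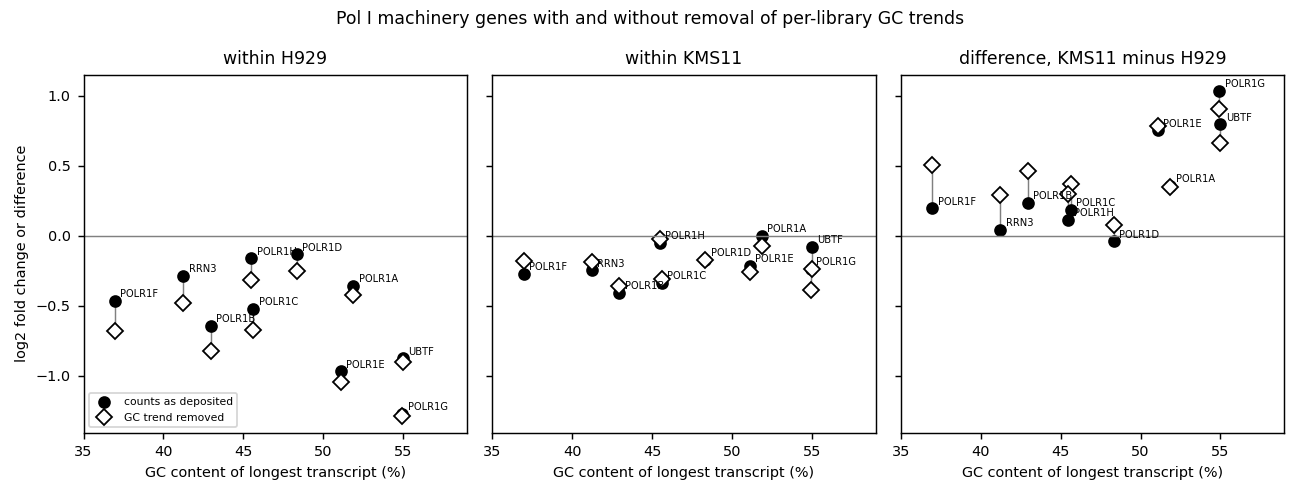
Log2 fold changes within H929 and within KMS11 and the difference between them (vertical axis) for the 10 Pol I genes against the GC content of the longest transcript (horizontal axis, %). Circles are from the counts as deposited and diamonds from the fit with each library's GC trend removed. In H929 every diamond lies at or below its circle, and POLR1F, RRN3 and POLR1B, of lowest GC content, move furthest.

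The rest of the machinery was described through lists of genes. The 5 subunits that Pol I, II and III have in common all fell in H929, with a median log2 fold change of -0.95. Over all tested genes 19.3% fell there and 22.7% rose. POLR2H (-1.11, adjusted p = 4.78e-05), POLR2E (-1.05, adjusted p = 0.0049) and POLR2L (-0.95, adjusted p = 0.00951) had the largest changes. The difference between the lines was positive and passed for 4 of the 5, beside 11.7% of all tested genes. None of the 5 passed in KMS11, where POLR2E (0.54) and POLR2L (0.72) had positive values. Of the 4 KMS11 libraries, fluvastatin replicate 1 had the highest level of both: POLR2L was at 49.6 CPM there and at 28.2 CPM in replicate 2, with controls at 23.7 and 23.5 CPM, and POLR2E was at 56.1 and 32.2 CPM with controls at 30.9 and 29.5 CPM. Without that library POLR2E was at 0.09 and POLR2L at 0.25, and without replicate 2 both were called higher (0.85, adjusted p = 0.00546, and 1.03, adjusted p = 0.00178) and POLR2K lower (-0.44, adjusted p = 0.0488).

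The 5 components of SL1, which selects the rDNA promoter, gave 1 call in H929, where 19.3% of all tested genes fell and 22.7% rose. There TAF1C fell by 0.55 on the log2 scale (adjusted p = 0.0478), while TAF1A (0.18), TAF1B (0.15), TAF1D (-0.17) and TBP (-0.05) did not pass. In KMS11 none passed, with or without either fluvastatin library, with values from -0.37 for TAF1A to 0.34 for TAF1C. The difference between the lines passed for TAF1C alone among the 5 (0.89, adjusted p = 0.044).

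Subunits of the other polymerases gave a scale for the Pol I values. Over all tested genes 19.3% fell in H929 and 22.7% rose. Of 7 Pol II-only subunits 5 fell in H929, led by POLR2I (-1.06), POLR2C (-0.68) and POLR2J (-0.52), and the median of the 7 was -0.45. Of 11 Pol III-only subunits 5 fell and 1 rose, with a median of -0.18. POLR3K (-1.43, adjusted p = 2.97e-05) and POLR3G (-1.30, adjusted p = 0.00014) fell, and POLR3GL, the paralogue that takes the place of POLR3G in the enzyme, rose (1.07, adjusted p = 4.43e-05). Of 11 factors that recruit or restrain Pol III 6 fell, with GTF3A (-0.69), GTF3C2 (-0.64) and BRF2 (-0.55) the largest, and the median was -0.38. None of these Pol II or Pol III genes passed in KMS11. No test compared these lists with the 10 Pol I genes. Without KMS11 fluvastatin replicate 2, POLR2A (1.21), POLR2J (0.41), BRF1 (0.58) and GTF3C5 (0.50) were called higher and GTF3C3 (-0.43) lower in KMS11, and these 5 were named after their values were seen.

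**Figure D4:**
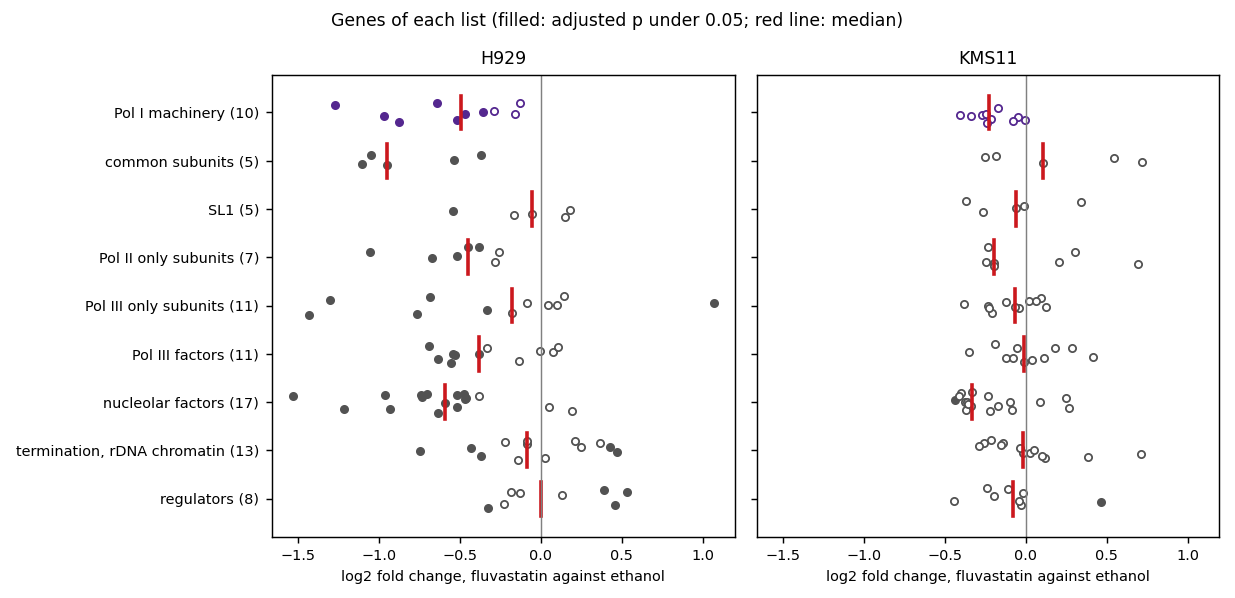
Log2 fold change of fluvastatin against ethanol (horizontal axis, same scale in both panels) for the genes of each list in H929 and KMS11. Points are genes, filled where the adjusted p was under 0.05, and red lines are medians. In H929 the medians run from -0.95 for the common subunits to -0.00 for the regulators, and in KMS11 NCL and GSK3B are the filled points.

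Nucleolar factors that act on rDNA transcription or on the first steps of ribosome assembly were a list of 17 genes. In H929 14 of them fell and none rose, with a median of -0.59, beside 19.3% and 22.7% of all tested genes. Across both lines 9 of 17 fell, beside 3.93% of all tested genes. TCOF1, the rDNA transcription factor mutated in Treacher Collins syndrome, had the largest change of this list (-1.53 ± 0.16, adjusted p = 7.59e-05), followed by MYBBP1A (-1.21, adjusted p = 0.000529). NCL, which encodes nucleolin, fell in H929 (-0.96, adjusted p = 7.95e-05) and was the only gene of the list to pass in KMS11 (-0.44, adjusted p = 0.0495). NCL did not pass there without fluvastatin replicate 1 (-0.37), ethanol replicate 1 (-0.46) or ethanol replicate 2 (-0.48). Without fluvastatin replicate 2 NCL passed (-0.57), with other genes of the list called lower and TCOF1 higher (0.44). TCOF1 had a value of 0.25 in KMS11, and the difference between the lines was 1.78 (adjusted p = 0.000871).

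Genes for termination and for rDNA chromatin showed no common direction. Of 14, 13 were tested. In H929 3 fell, KDM2B at -0.75, TOP1 at -0.43 and TTF1, which terminates Pol I transcription, at -0.37. There 2 rose, ERCC6 at 0.47 and BAZ2A at 0.42, where 19.3% of all tested genes fell and 22.7% rose. None passed in KMS11, where without fluvastatin replicate 2 MYO1C (0.89) and SIRT7 (0.57) were called higher and TOP2B (-0.41) lower. Among 8 regulators of Pol I, GSK3B (0.53), RB1 (0.46) and MYC (0.39, adjusted p = 0.0138) rose in H929, and CSNK2A1 fell (-0.33). The same 22.7% and 19.3% of all tested genes are the background for these calls. GSK3B and RB1 are known to restrain Pol I. GSK3B also rose in KMS11 (0.47, adjusted p = 0.0393), a call kept without fluvastatin replicate 2. The GSK3B call was lost without fluvastatin replicate 1 (0.44) or without either ethanol library (0.46 without ethanol replicate 1). MYC, a known driver of Pol I transcription, was at -0.44 in KMS11 (adjusted p = 0.0539). There MYC passed when either fluvastatin library was left out, but not when either ethanol library was. The difference between the lines passed for MYC (-0.83, adjusted p = 0.00427). TTF1, BAZ2A, MYC, CSNK2A1, MYO1C, SIRT7 and TOP2B were named after their values were seen.

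The 10 genes varied together to different degrees over the 8 libraries. With levels centred within each line, Pearson's r of each gene with the mean of the other 9 ran from 0.51 for POLR1H to 0.98 for POLR1E, with 0.98 for POLR1G, 0.96 for POLR1B and 0.74 for POLR1A and POLR1D. Among 7411 other protein-coding genes, those most like the mean of the 10 were RRP1B (r = 0.996), a nucleolar protein gene, VDAC1 (0.995) and CCT5 (0.995), FANCL (0.994) and ANAPC1 (0.993). All 5 had negative log2 fold changes in both lines, between -0.86 and -0.59 for H929 and between -0.27 and -0.21 for KMS11. This direction follows from their choice by correlation with a mean that fell in both lines. These values describe 8 libraries that share the same treatment contrast, and were not tested.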

How the data were processed

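RNA-seq was performed on 8 libraries, 2 for each of the 4 groups of line and treatment. Per the labels and the methods of the study, libraries were made with a stranded total RNA kit after removal of ribosomal RNA, and the authors aligned reads to GRCh38 with STAR 2.5.2b and estimated expected counts, TPM and effective lengths per gene with RSEM 1.3.0 and GENCODE release 26. The deposited TPM are relative to length and to all transcripts of a library. The deposited expected counts were rounded to whole numbers. Of 58219 genes listed, 57392 were matched to GENCODE release 44, from which biotypes and coordinates were taken, and 19683 were protein-coding. Between 5.93% and 6.38% of expected counts in a library were not whole.

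edgeR 4.0.16 (R 4.3.3) was run on protein-coding genes that passed filterByExpr (minimum count 10, total 15), with TMM scaling and the quasi-likelihood test (glmQLFit and glmQLFTest). Responses within each line, their difference and the lines in ethanol were contrasts of 4 group means. The response across both lines was fitted with a line term. The methods of the study compare treatments over both lines and do not say whether such a term was used. P-values are two-sided and were adjusted by Benjamini-Hochberg over all 13129 genes with a threshold of 0.05. SE and 95% intervals of log2 fold changes come from the same fit. Alternatives used DESeq2 1.42.0 and limma 3.58.1, the latter on log2(TPM + 1). GC trends were natural splines with 5 degrees of freedom per library. The procedure was tested on simulated counts. Counting error is small at these depths, and with 2 replicates a group the spread between libraries limits precision. The methods of the study call the replicates biological, without saying how the cultures were separated, so p-values measure the spread between these libraries.

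The 10 genes, the lists and the rules were chosen with earlier results of these data known. Named were all Pol I and SL1 genes, genes overlapping Pol I exons, RRN3 copies, in each other list up to 3 called genes of largest change in H929 and all called in KMS11, and the 5 genes of mean log2 CPM of at least 4 that were most correlated with the mean of the 10. The lists were subunits common to Pol I, II and III, SL1, Pol II-only and Pol III-only subunits, Pol III factors, nucleolar factors, termination and rDNA chromatin, regulators, RRN3 copies, and markers of myeloma and of other cell types. A gene of the regulator list is not reported here.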

Additional observations from a re-analysis of the deposited data

Results flagged for a closer look

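For 3 of the 10 Pol I genes H929 and KMS11 responded to fluvastatin to different degrees, by the test of the difference itself (edgeR, adjusted over all tested genes). The difference of log2 fold changes, KMS11 minus H929, was 1.04 for POLR1G (adjusted p = 0.00323), 0.80 for UBTF (adjusted p = 0.00408) and 0.75 for POLR1E (adjusted p = 0.00841). Both H929 fluvastatin libraries were below both controls for each of the 3 genes, and in KMS11 the same held for POLR1G and POLR1E but not for UBTF. Their GC contents, 51.1% to 55.0%, were in the upper part of the 10. With GC trends removed the differences were 0.90, 0.67 and 0.78, and all 3 stayed past the threshold. Over the alternatives run the adjusted p reached at most 0.0257 for POLR1G, 0.0321 for UBTF and 0.0533 for POLR1E, the last on the log2(TPM + 1) scale. No group had the 4 libraries needed to look for a single library far from the rest.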

How the results depend on the processing

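The directions of all 10 Pol I genes within H929 and across both lines were kept under every alternative run. Counts of genes called did change. Across both lines, 4 genes were called in the fit reported, 2 with library size scaling, 7 with GC trends removed, 8 with GC and length trends removed, and 0 at an adjusted p under 0.01, without the line term or with the replicate block, and 0 to 5 with a library left out. Within H929 the count was 7, with 4 at an adjusted p under 0.01 and 4 to 7 with a library left out. Within KMS11 the count was 0, with 1 by DESeq2, without the filter, with GC trends removed, with GC and length trends removed and with the replicate block, 0 to 2 with a library left out, and 0 to 1 with GC trends removed and a KMS11 library left out. The difference was called for 3 genes, for 6 with GC trends removed, with or without length trends, and for 2 to 4 with a library left out. Between the untreated lines 5 genes were called (4 lower and 1 higher in KMS11), 6 with library size scaling or the replicate block (4 and 2), 7 with GC and length trends removed (5 and 2), 6 on log2(TPM + 1) (0 and 6), and 3 to 5 with a library left out. Where a group was left with 1 library, that library was assumed to vary like the others. Causes of these changes were not tested.

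Same-numbered libraries had deviations correlated at 0.298 in H929 and at 0.0344 in KMS11, and the labels state no shared batch, so the numbers were not taken to pair libraries. GC trends removed and the replicate block together were an alternative chosen after seeing the data. It called 0 of the 10 genes across both lines, 10 lower in H929, 7 lower in KMS11 and 8 with a positive difference. Of all 13129 tested genes it called 4814 lower and 3284 higher in H929 and 1573 and 1457 in KMS11. Across both lines it called 56 and 213 of them, and for the difference 2076 and 3744. The other alternatives added after seeing the data left out KMS11 libraries, with GC trends removed for the Pol I genes and without for the other lists.

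Over all tested genes, removal of GC trends moved the calls in H929 from 2529 lower and 2982 higher to 4382 lower and 2996 higher, in KMS11 from 70 and 339 to 638 and 863, across both lines from 516 and 854 to 1741 and 1319, and for the difference from 1506 and 1542 to 1660 and 2988. DESeq2 called 1234 lower and 1322 higher across both lines and 269 and 657 in KMS11. Without the filter 203 of 16476 genes were lower in KMS11 and 895 higher. With GC and length trends removed the calls were 690 and 879 in KMS11, 4398 and 2952 in H929 and 1666 and 3064 for the difference. The replicate block called 476 and 1161 in KMS11 and 3044 and 3382 in H929. At an adjusted p under 0.01, 1616 were lower in H929 and 1922 higher. The log2(TPM + 1) scale turned the calls across both lines to 775 lower and 323 higher, in KMS11 to 96 and 127, and between the untreated lines to 2477 and 6644. Across both lines library size scaling called 473 and 908, and GC and length trends removed 1687 and 1256. The replicate block called 15 and 143 there, an adjusted p under 0.01 left 13 and 148, and the fit without the line term called 0 and 4. Between the untreated lines library size scaling called 4714 and 4754, the replicate block 5102 and 4943, and GC and length trends removed 5185 and 4898.

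Some values changed sign. The KMS11 value of POLR1A was 0.022 with library size scaling, 0.0011 with the stricter filter, -0.17 to 0.10 with a library left out and 0.032 with GC trends removed and KMS11 fluvastatin replicate 2 left out, and that of POLR1H was 0.014 with GC trends removed and KMS11 ethanol replicate 1 left out. The difference of POLR1D was 0.078 with GC trends removed, 0.024 with length trends also removed, 0.079 with GC trends removed and the replicate block, and -0.14 to 0.051 with a library left out. The difference of RRN3 was -0.0052 with DESeq2 and with median-of-ratios scaling and -0.12 to 0.22 with a library left out. On the log2(TPM + 1) scale the differences were -0.031 for POLR1B, -0.0033 for POLR1C, -0.057 for POLR1H and -0.085 for RRN3, and between the untreated lines POLR1B was at 0.36 (adjusted p = 0.0495), where it had been at -0.17, and the called POLR1G (-0.44) and POLR1H (-0.49) turned to no call, POLR1G at 0.031 and POLR1H at 0.097. Between the untreated lines POLR1C was at -0.11 with GC trends removed, -0.13 with length trends also removed and -0.11 with GC trends removed and the block, RRN3 was called lower at -0.30, -0.34 and -0.29 under the same, against 0.05 as reported and a call of 0.52 on log2(TPM + 1), and with a library left out RRN3 ran from -0.093 to 0.20 and POLR1A from -0.021 to 0.067.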

Other observations

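Ribosomal RNA, the product of Pol I, had been removed before sequencing, and some was still counted. The 3 genes RNA5-8SN1, RNA5-8SN2 and RNA5-8SN3, copies of a mature ribosomal RNA that cannot be told apart by short reads, together held 277 and 162 CPM (here scaled to all counts of a library) in the ethanol libraries of H929 and 184 and 185 CPM in its fluvastatin libraries. In KMS11 they held 85.5 and 98.4 CPM with ethanol and 187 and 145 CPM with fluvastatin. The groups overlapped in H929 and were apart in KMS11, with the fluvastatin libraries higher. How much ribosomal RNA was left by depletion was not measured apart from these genes, so its part in these values was not tested, and no test was run on the difference.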
